A study of Mus musculus with 10 samples.

Results

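The CREB target genes Sik1, Crem and Per1, and with them Gpr3, were followed through 8 lists of chromatin regions from mouse cortical neurons. The genes were matched by symbol in a RefSeq table (GRCm38) that holds 49943 genes on chromosomes 1 to 19, X and Y. Every deposited region within 50 kb of any of the 4 was taken, 327 of 651012 regions over the 8 lists. By list these were 37 of 66622 regions of Gtf3c1 in untreated and 54 of 58090 in KCl-treated neurons, 14 of 12531 and 16 of 4251 of Rpc155, 72 of 192225 and 66 of 193683 of H3K4me1, and 30 of 65486 and 38 of 58124 of H3K27ac. The genes had been picked with earlier results from these lists in view, so their values are a description. The regions nearest to the limit on its inner side lay 49.96 kb from Per1 and 49.8 kb from Sik1, and on its outer side 50.1 kb from Sik1 and 52.04 kb from Gpr3.

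The cells were primary cortical neurons of C57BL/6J mice at day 6 in vitro, kept overnight in 3% serum. They were then left without stimulation or exposed to 50 mM KCl for 45 min. Chromatin immunoprecipitation with sequencing (ChIP-seq) used antibodies to Gtf3c1, the DNA-binding largest subunit of TFIIIC, to Rpc155, which forms the active centre of RNA polymerase III, to H3K4me1, a histone mark found at enhancers, and to H3K27ac, found at promoters and enhancers in use. The submitters state 3 biological replicates per condition, but each antibody and condition has 1 list, so no difference below has a replicate check and no test was made. No group carries a transgene or deletion per the labels, and all groups share the strain, the culture age and the low serum. Depth is unknown, since only regions and no reads are listed.

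The culture was checked by H3K27ac within 1 kb of marker genes. All 11 neuronal markers were marked in both conditions, among them Rbfox3, Map2, Slc17a7 and Gad1, and none of 4 microglial markers was. Of 5 astrocyte markers 4 were marked without and 3 with KCl, of 5 oligodendrocyte lineage markers 2 and 2, and of 4 endothelial markers 1 and 1. The part of non-neuronal cells in the results was not tested.

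As background, depolarization lets calcium into neurons, and calcium and cAMP signals lead to phosphorylation of the transcription factor CREB, which binds cAMP response elements and recruits the acetyltransferase CBP and CRTC coactivators. Several CREB targets feed back on the same pathway. Sik1 encodes a salt-inducible kinase that keeps CRTC proteins out of the nucleus. Crem encodes relatives of CREB, including the inducible repressor ICER, which is made from an internal promoter. Per1 encodes a repressor of the circadian clock that light and cAMP induce. Gpr3 encodes an orphan receptor that couples to Gs without a known need for a ligand and raises cAMP in neurons.

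The promoters of Per1 and Gpr3 are shown because CREB acts through short elements there and because regions of 3 of the 4 antibodies covered them. RefSeq promoter windows (GRCm38.p6) matched 2 of the 4 genes, Per1 with 2 start sites and Gpr3 with 1. The 250 bases before each start site are printed 5′ to 3′ on the gene's strand, and capitals mark the core of the cAMP response element, TGACG, or CGTCA on the other strand.
Per1, start site at 69098949, chr11:69098699-69098948, plus strand: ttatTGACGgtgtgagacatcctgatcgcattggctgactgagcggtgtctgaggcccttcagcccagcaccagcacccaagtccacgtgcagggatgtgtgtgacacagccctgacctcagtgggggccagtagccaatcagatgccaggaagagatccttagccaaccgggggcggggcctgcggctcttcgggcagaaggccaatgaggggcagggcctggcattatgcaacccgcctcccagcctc
Per1, start site at 69100152, chr11:69099902-69100151, plus strand: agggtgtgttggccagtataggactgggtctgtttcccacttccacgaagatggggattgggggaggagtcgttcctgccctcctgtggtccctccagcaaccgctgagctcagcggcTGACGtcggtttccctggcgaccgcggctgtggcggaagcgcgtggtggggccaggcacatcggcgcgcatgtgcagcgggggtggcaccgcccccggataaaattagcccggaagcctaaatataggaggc
Gpr3, start site at 133212536, chr4:133212537-133212786, minus strand: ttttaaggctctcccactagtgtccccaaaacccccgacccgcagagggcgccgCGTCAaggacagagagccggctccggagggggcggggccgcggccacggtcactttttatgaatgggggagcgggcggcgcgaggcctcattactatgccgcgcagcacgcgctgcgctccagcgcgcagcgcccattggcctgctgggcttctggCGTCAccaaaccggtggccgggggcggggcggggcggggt

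The full palindromic element, TGACGTCA, was in none of these 3 windows. Counted from the start site, the core motifs of Per1 began at -246 in the first window and at -132 in the second, and those of Gpr3 at -196 and -40. In windows of 300 bases around the start site, 24.7% of 19910 promoters of protein-coding genes of at least 1 kb held a core motif on either strand and 2.35% held the full element, which itself contains the core. A match is a run of letters and not a measured binding site. All 3 printed windows were covered over their whole length by Gtf3c1 and by H3K27ac in both conditions. Fold enrichment, the authors' ratio of a region's summit to its local background, was 2.54 without and 10.2 with KCl for the Gtf3c1 region over the first Per1 window, 4.08 and 10.2 over the second, and 3.76 and 4.66 over the Gpr3 window. These values rank regions within a list, and pairs from 2 lists are set side by side here without a test. H3K4me1 covered the Per1 windows whole in both lists, and the Gpr3 window over 60.8% and 89.6%. Rpc155 covered none of the 3 in either list.

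Sik1 lies on chromosome 17 from 31844248 to 31855804 (11557 bp). Crem lies on chromosome 18 from 3266354 to 3337773 (71420 bp), with 62 RefSeq transcripts. Per1 lies on chromosome 11 from 69095108 to 69109965 on the plus strand (14858 bp). Gpr3 lies on chromosome 4 from 133209340 to 133212536 on the minus strand (3197 bp). For Sik1 and Crem the strand was not used here, and their ends are named by coordinate. Other genes overlap or crowd the windows. The noncoding gene Gm41564 overlaps the lower-coordinate end of Sik1, Gm6225 overlaps the higher-coordinate end of Crem, and the Per1 window holds 11 tRNA genes, the classic targets of RNA polymerase III.

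The question put to each gene body was how much of its length the regions covered without and with KCl. Gtf3c1 covered more of Sik1, Per1 and Crem with KCl and less of Gpr3. H3K27ac and H3K4me1 covered more of all 4. Rpc155 was listed inside Sik1 and Per1 with KCl only, inside Crem in both conditions and inside Gpr3 in neither.

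In numbers, Gtf3c1 covered 28.1% of Sik1 without and 83.04% with KCl, the widest change among the 4. Over Per1 it covered 40.01% and 69.4%. Crem is long and mostly bare: 1.52% and 3.56% of it was covered. At Gpr3 the share went from 42.04% to 26.9%. Of the 4 genes, 2 (Sik1 and Per1) had a larger share with KCl by at least 20 percentage points, where 1.82% of 20311 protein-coding genes of at least 1 kb did. None had a share smaller by that much, against 0.803% of those genes. With any difference counted, 3 of 4 were larger and 1 smaller, against 30.7% and 32.3% of those genes. The median difference over all these genes was 0.0 points. At a stricter q of 1e-05 or lower the difference at Per1 was 47.9 points, against 29.4 over the whole lists.

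**Figure D1:**
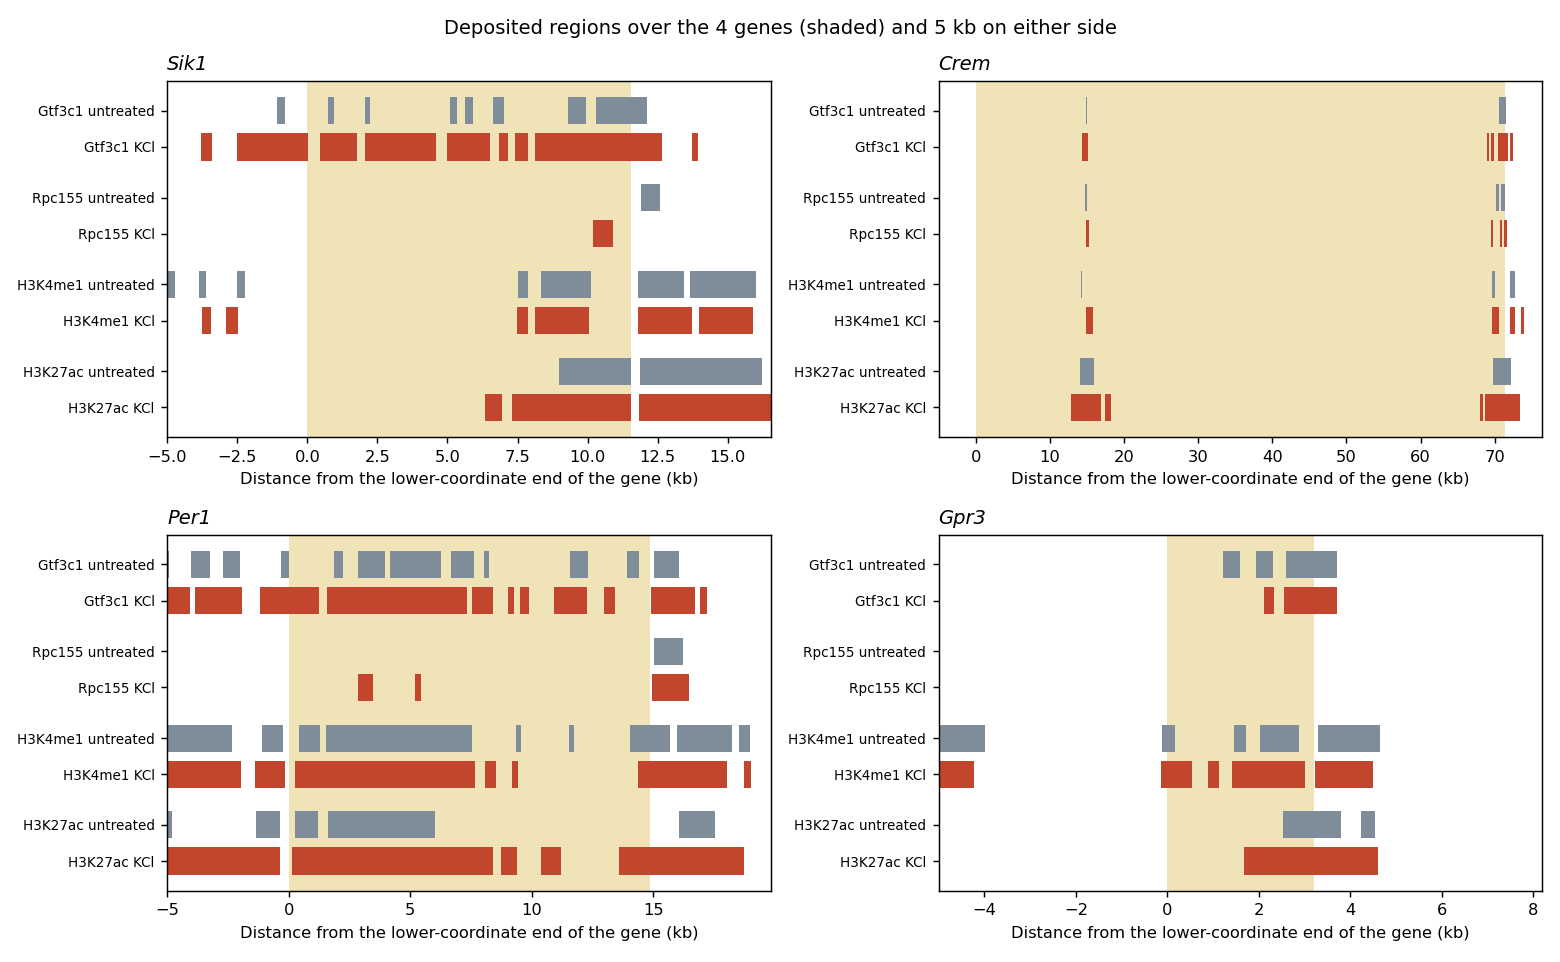
Regions of each antibody in the untreated (grey) and KCl (red) lists, by distance in kb from the lower-coordinate end of each gene. The shaded span is the gene, with 5 kb shown on either side. Gtf3c1 covered 28.1% of Sik1 in the untreated list and 83.04% with KCl, and Crem carried its regions near 2 places only.

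H3K27ac covered 36.2% of Per1 without and 74.2% with KCl, the widest change of this mark among the 4. Gpr3 followed with 20.8% and 47.8%. For Sik1 the shares were 22.3% and 42.0%, and for Crem 5.05% and 11.05%. Per1 and Gpr3 passed a difference of 20 points, which 2.97% of protein-coding genes did. None of the 4 was smaller by that much, against 0.0985%. Sik1 stood just under 20 points at 19.7. At a q of 1e-05 or lower the differences were 27.95 points at Per1, 27.03 at Gpr3, 14.5 at Sik1 and 4.85 at Crem. Without regions at tRNA genes Per1 had 29.5 points, against 37.99 over the whole lists, and Gpr3 stayed at 27.03. The lead of Per1 over Gpr3 was thus small under both settings. Over all protein-coding genes 51.8% had a larger share with KCl and 15.1% a smaller one, so a larger share in 4 of 4 genes stands beside a common direction in this mark.

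The H3K4me1 share was larger with KCl by 2.15 points at Sik1, 1.73 at Crem and 3.14 at Per1. The Per1 value was 1.32 at a q of 1e-05 or lower and 5.42 without regions at tRNA genes. At Gpr3 it covered 40.04% without and 74.2% with KCl. Gpr3 was the 1 gene of 4 past 20 points, which 0.601% of protein-coding genes passed, and none was smaller by that much, against 0.182%. Of 3 parts of equal length, the lower-coordinate one, which is the 3′ part of this minus-strand gene, was covered over 15.02% and 67.4%. A larger share by any amount was found at all 4 genes, against 46.2% of protein-coding genes, and a smaller one at none, against 32.9%.

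**Figure D2:**
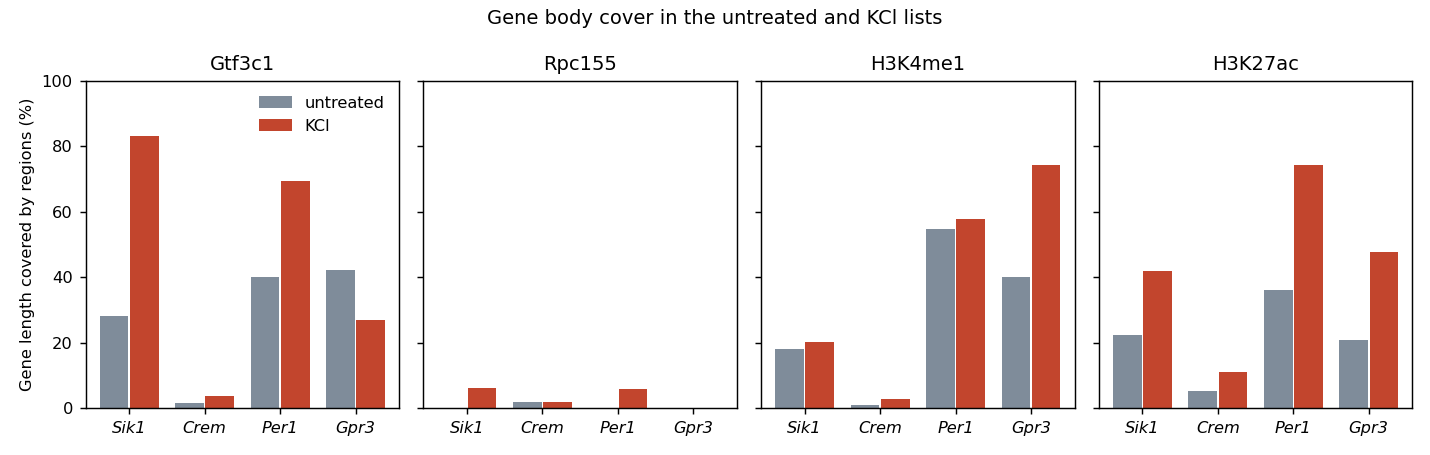
Share of each gene's length (%) covered by regions of the 4 antibodies, untreated in grey and KCl in red, 1 list per bar. Gtf3c1 cover is higher with KCl at Sik1, Crem and Per1 and lower at Gpr3 (42.04% and 26.9%), and H3K27ac cover is higher at all 4.

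**Figure D3:**
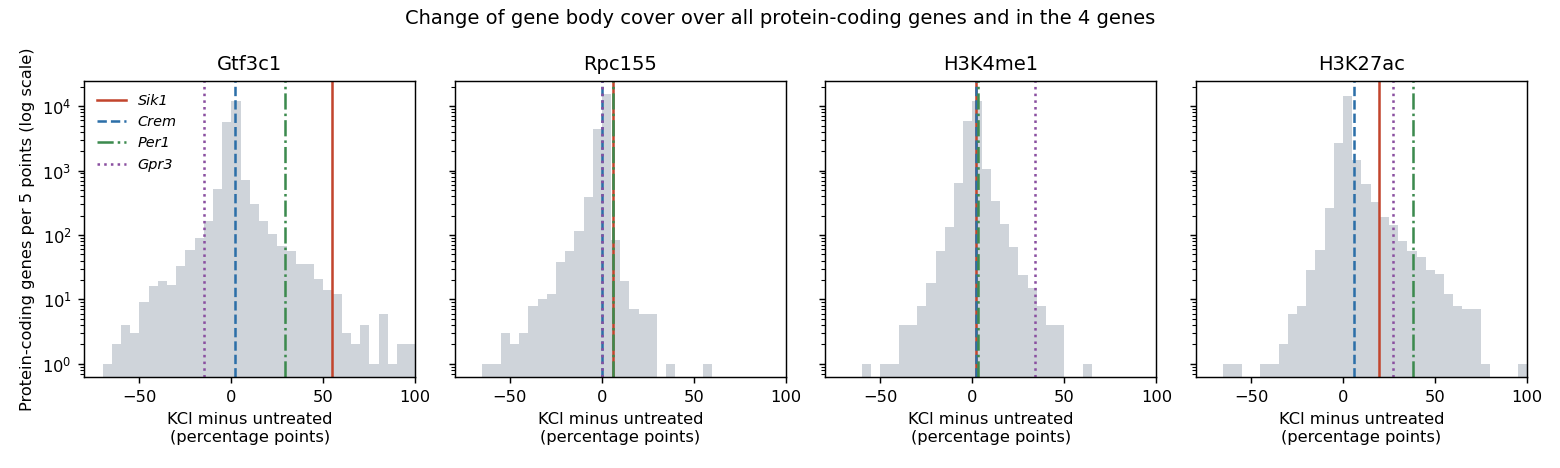
Number of protein-coding genes (log scale) by the difference in gene body cover, KCl minus untreated, in bins of 5 percentage points, with a line for each of the 4 genes. Sik1 and Per1 lie on the right-hand tail for Gtf3c1, Gpr3 lies to the left of 0 there and on the right-hand tail for H3K4me1, and the lines of Sik1 and Per1 nearly coincide for Rpc155 at 6.24 and 5.87 points.

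At Sik1 the strongest Gtf3c1 region of each condition had nearly the same summit. The untreated list held 7 separate Gtf3c1 regions over the gene, the strongest at chromosome 17, 31854537 to 31856365, with a fold enrichment of 4.66. In the KCl list the strongest spanned 31852390 to 31856915 with a fold enrichment of 25.3. Their summits, the positions of highest signal, lay 1 bp apart at 31854637 and 31854636. Within their own lists the untreated region stood at the top 22.96% by fold enrichment and the KCl region at the top 0.238%. The other 6 KCl regions over the gene had fold enrichments of 3.59 to 5.74, and 6 of the 7 KCl regions overlapped an untreated one.

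Gtf3c1 also ran past the ends of Sik1 with KCl. It covered 37.55% of the first kb on both sides in the untreated list and the whole of it with KCl, and 1.29% and 27.5% of the next 4 kb. From 5 to 20 kb away the shares were 0.0% and 0.903%. On the lower-coordinate side a KCl region of 2520 bp (31841742 to 31844261) lay on Gm41564, so signal of this gene and of Sik1 cannot be told apart there. With Sik1 cut into 3 parts of equal length, cover was 10.7% and 81.3% in the lower-coordinate part, 24.2% and 74.6% in the middle and 49.3% and 93.3% in the higher-coordinate part.

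H3K27ac at Sik1 was densest at the higher-coordinate end. Its regions left a gap at that end in both lists, from 31855797 to 31856126 untreated and from 31855798 to 31856069 with KCl. The region on the gene side had a fold enrichment of 8.25 without and 12.03 with KCl, and the region beyond the end 6.86 and 12.6. The middle part was bare of it without KCl and covered over 26.1% with KCl. The lower-coordinate part of Sik1, covered by Gtf3c1 over 81.3% with KCl, had no H3K27ac and no H3K4me1 in either condition. Just beyond the higher-coordinate end an H3K4me1 region stood at the top 0.137% of the untreated list (31856049 to 31857704, fold enrichment 20.4) and at the top 0.0434% of the KCl list (31856035 to 31857981, 24.02).

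Rpc155 was at Sik1 in both conditions but not at the same place. In untreated neurons its region lay 355 bp beyond the higher-coordinate end, at 31856159 to 31856821, with a fold enrichment of 3.23 and a −log10 q of 2.75. With KCl a region inside the gene, at 31854453 to 31855173, had a fold enrichment of 8.90 and a −log10 q of 28.4. Neither overlapped a region of the other list. The summit of the KCl region lay 7 bp from that of Gtf3c1, whereas the untreated summit lay 2025 bp from the nearest one of Gtf3c1. With 1 kb on either side added to the gene, the difference in Rpc155 cover was 0.553 points, against 6.24 in the gene alone, since the untreated region then counts.

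A region of Rpc155 over the gene in the KCl list alone was found at 2 of the 4 genes, Sik1 and Per1, against 3.17% of protein-coding genes. Such a region in the untreated list alone was found at none of the 4, against 19.8% of these genes, the untreated Rpc155 list being the longer. At a fold enrichment of at least 6, Sik1 was the 1 gene that had its region with KCl alone, against 0.591% of protein-coding genes, and none had one in the untreated list alone, against 0.635%. Rpc155 cover was larger at 2 of 4 genes and smaller at none, against 5.42% and 24.8% of protein-coding genes, and none differed by 20 points in either direction, against 0.0689% larger and 0.384% smaller.

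A distal place below Sik1 carried both factors in both conditions. Gtf3c1 lay 29.7 kb from the gene at 31814097 to 31814528 in the untreated list (fold enrichment 8.95) and at 31814121 to 31814534 with KCl (10.8). Rpc155 lay there at 31814162 to 31814514 (4.07) and at 31814125 to 31814566 (8.90). In each condition the summits of Gtf3c1 and Rpc155 were 1 bp apart. The place lay inside H3K4me1 regions of fold enrichment 11.4 and 13.6 and overlapped H3K27ac in both lists (3.86 and 4.05). It was the 1 distal place with Rpc155 in all 4 windows.

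Crem carried its regions near 2 places, one close to the higher-coordinate end and one within the lower-coordinate part, and the middle of the 3 equal parts held no region of any antibody. At the internal place Gtf3c1 was listed at chromosome 18, 3281173 to 3281389, with a fold enrichment of 2.87 in untreated neurons, and at 3280681 to 3281497 with 7.0 in KCl-treated ones. Rpc155 lay there in both lists, with fold enrichments of 3.40 and 3.81. H3K27ac widened from 1886 bp (fold enrichment 5.46) to 3964 bp (12.97). H3K4me1 had regions of 204 bp and 919 bp that did not overlap each other. Whether this place is the ICER promoter was not tested.

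At the higher-coordinate end of Crem the Gtf3c1 signal had a different leading position in each list. The untreated region spanned 3336905 to 3337804 (fold enrichment 5.01, top 18.7% of its list). In the KCl list a region of 1414 bp overlapped it (8.07), but the strongest was a separate region at 3335849 to 3336297 (13.3, top 1.33%), which overlapped no untreated region. Its summit lay 1567 bp inside the untreated one. The strongest Rpc155 region also differed between the lists. It was at 3337233 to 3337754 in the untreated list (3.74) and at 3335880 to 3336166 in the KCl list (5.995). The latter was in the KCl list alone, with its summit 33 bp from that of Gtf3c1. The untreated place kept Rpc155 with KCl, in regions at 3337029 to 3337321 (3.81) and 3337611 to 3338045 (3.09). Rpc155 covered 1200 bp of Crem in each list, although each list also held a region over the gene with no counterpart in the other. With the untreated list cut to the length of the KCl list, the difference was 1.68 points, the whole of the KCl cover, and no untreated region remained over Crem. The H3K27ac region here was already strong without KCl (12.3, top 0.376% of its list) and spanned 2443 bp. With KCl it spanned 4635 bp (13.8, top 1.81% of its list).

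Part of the Crem end lies under Gm6225, which starts at 3336416, but the strongest KCl regions of Gtf3c1 and Rpc155 end below that position. A fold enrichment of at least 6 for Gtf3c1 over the gene in the KCl list alone was found at Sik1, Crem and Per1, 3 of 4 genes, against 6.36% of protein-coding genes. In the untreated list alone it was found at none of the 4, against 5.30%. Crem was also the 1 gene of 4 with such an H3K4me1 region in the KCl list alone, against 8.16%, and none had one in the untreated list alone, against 3.70%.

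Per1 lies in a crowded stretch, and cover by Gtf3c1 and by H3K27ac was larger with KCl over the gene and around it. In the first kb on both sides Gtf3c1 covered 56.95% and 98.25%, and H3K27ac 32.05% and 82.8%, so signal of Per1 and of its neighbours cannot be told apart by cover. Of 7 Gtf3c1 regions over the gene in the untreated list, the strongest lay at chromosome 11, 69099285 to 69101380 (fold enrichment 4.08). With KCl the strongest spanned 69096695 to 69102439 (10.2) and took in both printed start sites. A second KCl region, 69093925 to 69096355 (8.43), bridged the 5′ end of the gene. Of 3 parts of equal length, the 5′ part was covered over 45.7% and 93.2%, the middle over 49.7% and 78.8% and the 3′ part over 24.6% and 36.3%, so the 5′ part led with KCl and the middle without it.

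The H3K27ac region over the start sites of Per1 stood near the top of the KCl list. It spanned 69096710 to 69101111 in the untreated list (fold enrichment 10.3, top 1.49% of its list) and 69095233 to 69103509 in the KCl list (19.6), where it ranked 7 of 58124. In the middle part of the gene H3K27ac covered 21.2% and 83.3%, and in the 3′ part 0.0% and 41.9%. Part of the latter lay in a KCl region of 5124 bp that runs on over 2 tRNA genes. From 1 to 5 kb outside the gene the mark covered 25.4% and 85.8%. The H3K27ac region on the side of Vamp2, which encodes a synaptic vesicle fusion protein, spanned 2597 bp in the untreated list and 8133 bp with KCl.

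**Figure D4:**
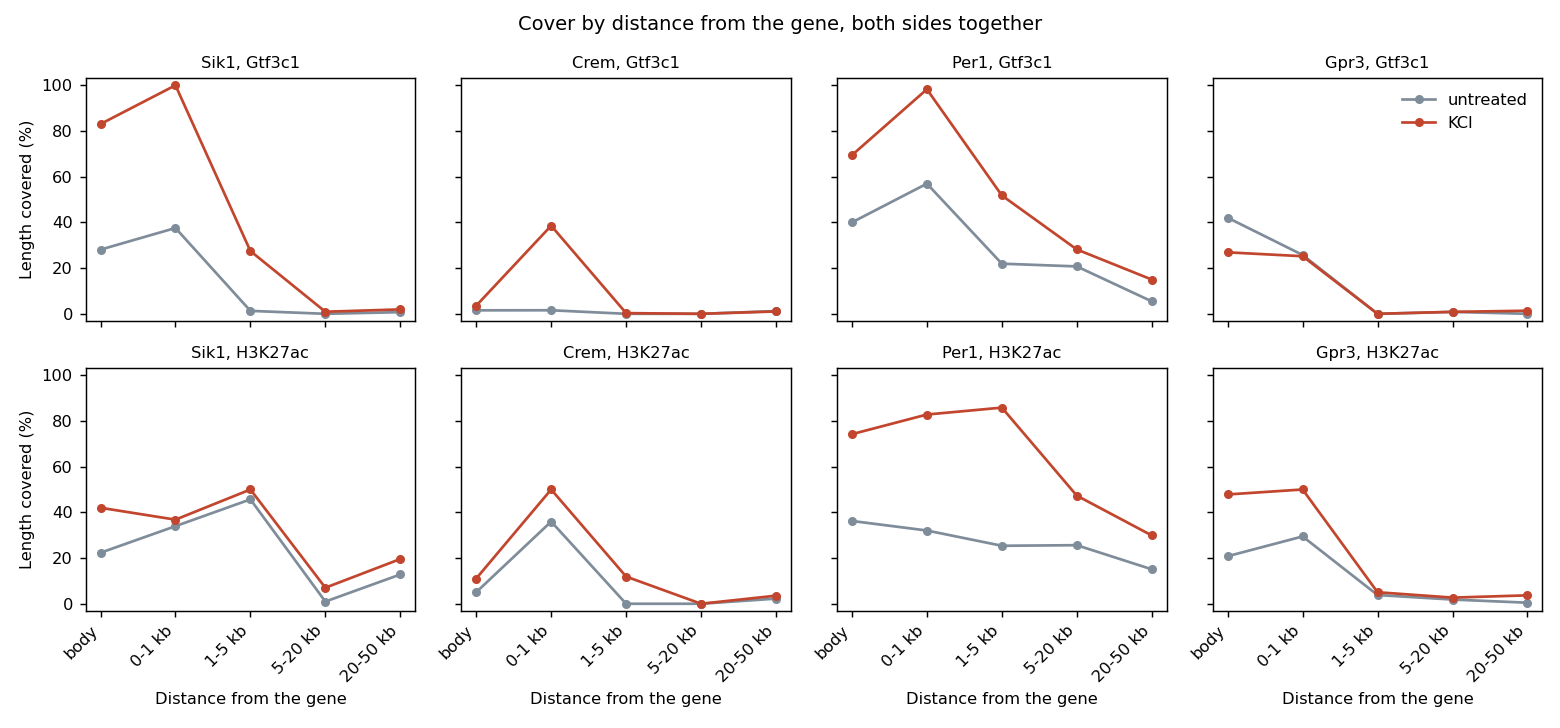
Share of length (%) covered by Gtf3c1 (upper row) and H3K27ac (lower row) over each gene and in 4 distance bands on both sides together, untreated in grey and KCl in red. At Sik1 Gtf3c1 reaches 100% within 1 kb and 0.903% from 5 to 20 kb with KCl, while at Per1 the H3K27ac cover is higher with KCl in every band shown.

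Rpc155 inside Per1 was weak. The KCl list had regions at 69097962 to 69098567 (fold enrichment 3.45, −log10 q 2.90) and at 69100288 to 69100553 (2.92, −log10 q 2.26), the latter just past the second start site, and the untreated list had none. Both lay in the lower part of their list, at 62.7% and 95.01% of the ranks. Their summits, at 69098333 and 69100413, were 1147 and 2827 bp from the nearest listed Gtf3c1 summit with KCl. Both lay inside the long KCl Gtf3c1 region of 5745 bp, which has 1 listed summit, so these distances do not place Rpc155 away from Gtf3c1. In the untreated list, where this stretch is split, Gtf3c1 summits were listed at 69098203 and 69100521. At a q of 1e-05 or lower no Rpc155 region lay over Per1 in either list. The tRNA genes next to Per1 were strong in both lists. n-TTagt5 and n-TScga3, 500 and 954 bp past the 3′ end, shared a region of fold enrichment 14.95 without and 16.2 with KCl. With the regions within 200 bp of tRNA genes left out, the Per1 body kept its Rpc155 regions, and no count of genes with larger or smaller cover changed.

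All 11 tRNA genes of the Per1 window had Rpc155 and Gtf3c1 in both conditions. Their strongest Rpc155 regions had fold enrichments of 14.95 to 52.6 without and 16.2 to 59.9 with KCl, and those of Gtf3c1 3.79 to 25.97 and 6.10 to 38.2. H3K27ac was at 10 of them without and at 11 with KCl. Several of these genes share a region and are not independent values.

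Gpr3 was the 1 gene of 4 without a listed Rpc155 region. None lay within 50 kb of it in either list, and the share of all genes with one within 50 kb was not counted. Over the gene body 27.1% of protein-coding genes had one without and 10.4% with KCl, so most had none there. Of the 4 genes 1 (Crem) had one without and 3 (Sik1, Crem and Per1) with KCl. The Gtf3c1 regions of Gpr3 stayed weak. The strongest lay at the 5′ end, at chromosome 4, 133211928 to 133213051 (fold enrichment 3.76) and 133211888 to 133213040 (4.66), top 42.3% and top 18.9% of their lists. The smaller cover with KCl came mostly from an untreated region of 368 bp in the middle of the gene (133210553 to 133210920, fold enrichment 3.22, −log10 q 3.33) that had no KCl counterpart. At a q of 1e-05 or lower the difference turned from -15.1 to 1.25 points, so the direction at Gpr3 rests on weak regions.

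H3K27ac at Gpr3 spanned 1254 bp over the 5′ end in the untreated list (133211872 to 133213125, fold enrichment 5.21) and 2932 bp with KCl (133211008 to 133213939, 10.5). Gpr3 was the 1 gene of 4 at which a fold enrichment of at least 6 for this mark was reached in the KCl list alone, against 16.7% of protein-coding genes, and none reached it in the untreated list alone, against 0.837%. The other 3 genes were past that level in both lists. Gpr3 thus combined wider marks over the gene with Gtf3c1 regions of similar width at its 5′ end, 1124 and 1153 bp.

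The next question was what lay away from the genes. Distal regions were those more than 1 kb from any gene in the table. In the 4 windows together Gtf3c1 had 2 of 37 regions there in the untreated list and 10 of 54 with KCl, where 21.3% and 14.2% of the whole lists were distal. Under the stricter q these numbered 1 and 4. Of the 10 KCl regions 9 had no untreated counterpart, against 35.2% of all distal KCl regions of Gtf3c1, and 1 of the 2 untreated ones had no KCl counterpart, against 62.5%. They were weak: the strongest of the 9 had a fold enrichment of 4.48 (36.6 kb above Sik1), and 5 lay around Per1 and 4 around Sik1. The windows of Crem and Gpr3 had none. Over all places in the windows, 29 of 54 KCl regions and 4 of 37 untreated regions of Gtf3c1 lacked a counterpart, against 48.9% and 54.4% of the whole lists.

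H3K27ac had 8 distal regions of 30 without and 12 of 38 with KCl, where 28.7% and 25.1% of the whole lists were distal. All 8 untreated ones had a KCl counterpart, where 49.6% of all distal untreated regions had none, and 6 of the 12 KCl ones had no untreated counterpart, against 34.6%. Over all places 2 of 30 and 18 of 38 lacked a counterpart, against 37.3% and 31.9%. H3K4me1 had 15 of 72 and 15 of 66 there, where 29.0% and 29.5% of the lists were distal, and of these 1 and 3 lacked a counterpart, against 20.1% and 24.6%. Over all places 8 of 72 and 10 of 66 did, against 18.3% and 21.5%. Rpc155 had 1 of 14 and 1 of 16 distal regions, the place below Sik1, where 23.8% and 19.3% of its lists were distal. That place had a counterpart in both lists, while 84.3% and 42.4% of all distal Rpc155 regions had none. In the windows as a whole 5 of 14 and 6 of 16 lacked one, against 82.4% and 48.1%.

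**Figure D5:**
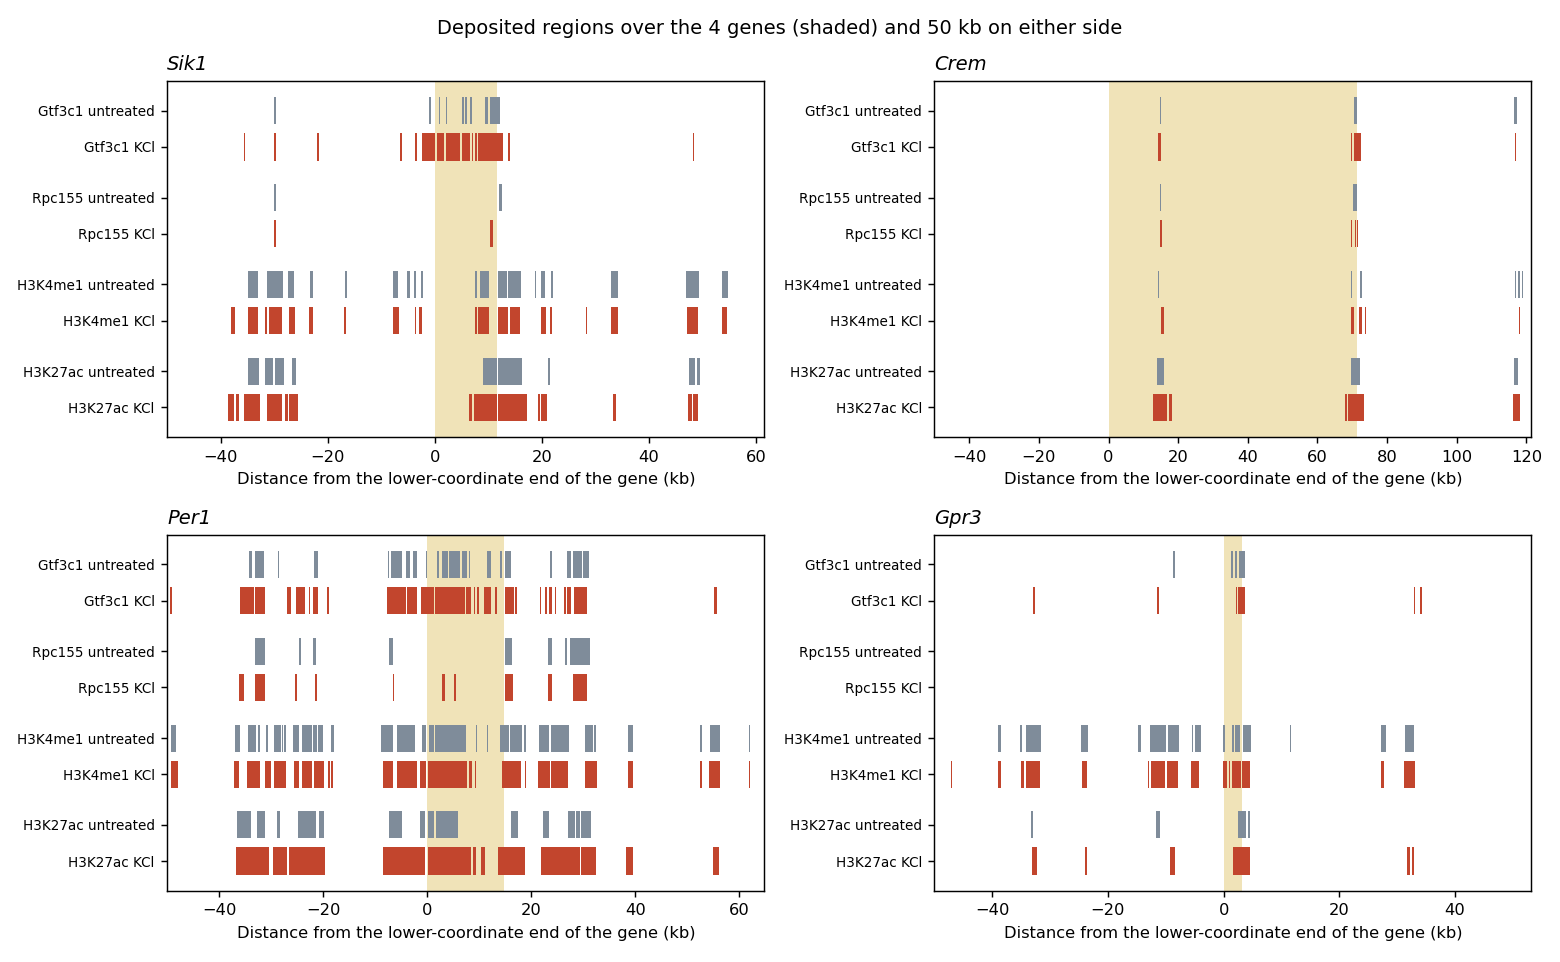
All regions within 50 kb of each gene (shaded), by distance in kb from its lower-coordinate end, untreated in grey and KCl in red. The Sik1 window holds most of the distal H3K27ac regions (10 of 12 with KCl), the Per1 window is filled by regions of its neighbours, and the Gpr3 window shows no Rpc155.

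Distal H3K4me1 regions that overlapped H3K27ac, the usual sign of an active enhancer, numbered 6 of 15 in untreated and 8 of 15 in KCl-treated neurons, against 25.0% and 19.5% of all distal H3K4me1 regions. At a q of 1e-05 or lower they numbered 6 and 6. Of these, 5 and 7 were near Sik1, 1 and 1 near Per1, and none near Crem or Gpr3. Near Sik1, 1 in each list lay close to the gene, 2.10 kb above it untreated and 2.43 kb with KCl. It overlapped the broad H3K27ac region that begins 322 bp (untreated) and 265 bp (KCl) beyond the gene. The summits of that H3K27ac region lay outside the H3K4me1 region, nearer to the gene. The 2 near Sik1 whose place had no H3K27ac in the untreated list lay at 31806113 to 31806920, where H3K4me1 was new as well, and at 31877139 to 31878448, where H3K4me1 had been listed without KCl (fold enrichment 8.53 untreated and 7.71 with KCl). Their H3K27ac regions were weak, at 2.83 and 2.84. Gtf3c1 was at 2 of the 6 and 2 of the 8, against 41.0% and 28.2% of such regions in the whole lists, and Rpc155 at 1 of each, against 14.1% and 4.82%.

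Inside genes there were further places. Regions of Gpr3's neighbour Wasf2, which encodes an actin regulator, included an H3K27ac region 32.2 kb from Gpr3 with a fold enrichment of 6.21 with KCl (898 bp) that overlapped one of 2.41 (273 bp) in the untreated list. A KCl-only Gtf3c1 region of fold enrichment 3.59 lay on it. At the lower-coordinate end of Cul2, which encodes a ubiquitin ligase scaffold, the order of Gtf3c1 was the opposite of that at Crem: 10.2 without and 5.46 with KCl, with Rpc155 in the untreated list alone (3.91).

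All 16 KCl regions of Rpc155 in the windows overlapped a Gtf3c1 region of that condition, and 12 of 14 untreated ones did, against 81.8% and 76.3% of the whole lists. H3K27ac overlapped 16 of 16 and 13 of 14, against 87.3% and 80.6%, and H3K4me1 13 of 16 and 11 of 14, against 86.4% and 83.1%. Of these regions 4 in each list lay at tRNA genes.

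Other genes of the pathway were taken from lists chosen with earlier results of these data known. The lists share Per2, Per3, Creb1 and Atf1 among them. Of 25 other CREB targets, 9 had a larger Gtf3c1 cover with KCl by at least 20 points, against 1.82% of protein-coding genes. None had a smaller one by that much, against 0.803%. The median difference was 3.37 points, against 0.0 over all protein-coding genes. Those with the widest change were the AP-1 genes Fosb (7.07% and 100%), Junb (16.96% and 100%) and Fos (18.5% and 100%) and the zinc finger gene Egr1 (16.6% and 100%). At the other end stood Pde4b, a cAMP phosphodiesterase gene (1.92% and 1.29%), and Crh, which encodes corticotropin-releasing hormone (21.6% and 11.4%). H3K27ac cover was larger by 20 points at 9 of the 25 and smaller at none, against 2.97% and 0.0985% of protein-coding genes. Crh was without H3K27ac over the gene in the untreated list and covered over 26.2% with KCl. At Crh, as at Gpr3, Gtf3c1 cover was thus smaller and H3K27ac cover larger with KCl. The strongest Gtf3c1 regions over Crh were weak (4.30 and 3.05), and the direction at Gpr3 turned at a q of 1e-05 or lower.

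Of 15 genes that carry the signal to CREB none passed 20 points in either direction for any antibody. Of protein-coding genes 1.82% had a Gtf3c1 cover larger and 0.803% a cover smaller by that much. The shares were 2.97% and 0.0985% for H3K27ac, 0.601% and 0.182% for H3K4me1, and 0.0689% and 0.384% for Rpc155. At shares this low, a count of none among 15 genes does not set them apart. The median difference for Gtf3c1 was 0.174 points. The widest was Prkar1a, a regulatory subunit of protein kinase A (16.5% and 31.8%), followed by Creb1 itself (0.309% and 3.02%). Crtc3, a CRTC coactivator gene (4.43% and 2.77%), and Adcy1, a calcium-sensitive adenylyl cyclase gene (3.70% and 1.80%), stood at the low end. Rpc155 was over 10 of the 15 without and 7 with KCl, against 27.1% and 10.4% of protein-coding genes. The 2 sets were not matched for length, and a longer gene has more room for a region. The part of gene length in these counts was not tested.

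Close relatives of the 4 genes were counted in the same way. Among Sik2, Sik3, Creb1, Atf1, Per2, Per3, Gpr6 and Gpr12, none had a Gtf3c1 difference of 20 points. Of protein-coding genes 1.82% had a cover larger and 0.803% a cover smaller by that much. Among the 4 genes Sik1 and Per1 had such a difference. Cover is a share of gene length, and the relatives were not matched to the 4 genes for length. Whether the relatives differ from Sik1 and Per1 was therefore not tested. The median of the relatives was 0.0869. Sik2, another salt-inducible kinase gene, had 1.45% and 3.09%. Per2, the closest relative of Per1, had 1.96% and 1.47%, with strongest regions of fold enrichment 10.7 and 10.9. Gpr12, a receptor gene of the Gpr3 family, had 33.2% and 29.8% of Gtf3c1 and 21.5% and 0.0% of Rpc155. A Gtf3c1 fold enrichment of at least 6 in the KCl list alone was found at 2 of the 8 relatives, against 6.36% of protein-coding genes. These were Creb1 (3.40 and 6.82) and Sik2 (5.01 and 8.79). None had one in the untreated list alone, against 5.30%. Of the 12 clock genes, 1 passed 20 points for Gtf3c1, Nr1d1, which encodes the repressor Rev-erb alpha, with 73.97% and 48.01%. A cover smaller by 20 points was found at 0.803% of protein-coding genes. No clock gene had a cover larger by 20 points, against 1.82%. Dbp, an output gene of the clock, had 39.4% and 49.4%. Whether Per1 differs from the other clock genes was not tested.

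The genes most like each member were found by the Euclidean distance over its 8 gene body covers in percentage points. For Sik1 these were Ina, which encodes the neurofilament protein alpha-internexin (distance 23.1), Ptp4a1, a phosphatase gene (26.1), and Fasn, the fatty acid synthase gene (27.6). For Crem they were Nkrf (3.44), Cep19 (3.78) and Rbbp7 (4.20), all with low cover throughout. For Per1 they were Rpl21, a ribosomal protein gene (15.6), Ptbp1, a splicing regulator gene (17.4), and Cic (17.7). For Gpr3 they were Trmt2a (23.3), Nfkbia, an inhibitor of NF-kappa B (23.7), and Med11 (23.997). Among the 4 themselves the nearest pair was Per1 and Gpr3 (57.1) and the farthest Crem and Per1 (129.4).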

How the data were processed

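The submitters' processing notes name Bowtie2, MACS2 and the build GRCm38 (mm10). Their versions, and any pooling of replicates, were not given in the sources used here. Per the layout of the deposited lists, each region has a score (10 times the −log10 q, rounded down), a fold enrichment (a ratio, summit over local background), a −log10 p and a −log10 q. These are the authors' values, used to describe, rank and filter regions within a list. No adjustment between libraries was made here, and values of 2 lists set side by side are not a measured change. The number of unused columns of per-sample values was 0. The input libraries were not analysed here.

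Regions (autosomes, X and Y) were joined to a RefSeq gene table of the same build with Python 3.11.15, numpy 2.4.6 and pandas 2.3.3. Cover is the share of a gene's length under regions. Background shares were counted over 20311 protein-coding genes of at least 1 kb. Regions were shared at an overlap of 1 bp. The cover code was tested on simulated intervals. The 4 genes, the lists and the tests were chosen with earlier results of these data known. Named genes are the 4, in each list those with the 4 largest and 2 smallest differences in Gtf3c1 cover, the 3 nearest in pattern, and neighbours under a region. Alternatives were a q of 1e-05 or lower, equal list lengths, 1 kb flanks, a 25 kb window, other distal limits and a 50% overlap. With no read counts, the precision of a value is not known. Positions are 1-based.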

Additional observations from a re-analysis of the deposited data

How the results depend on the processing

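The counts of genes with larger cover with KCl (3 for Gtf3c1, 2 for Rpc155, 4 for H3K4me1 and 4 for H3K27ac) stayed within 1.5 times under the settings run for them, namely a q of 1e-05 or lower, equal list lengths, 1 kb flanks and, chosen after seeing the data, no regions at tRNA genes. The 2 genes for Rpc155 were not the same ones throughout: at a q of 1e-05 or lower they were Sik1 (6.24 points) and Crem (0.402), with Per1 at 0.0. At a q of 1e-05 or lower the count with smaller Gtf3c1 cover was 0, and the difference at Gpr3 turned to 1.25 points, as its untreated regions of 368 and 367 bp (−log10 q 3.33 and 2.82) and a KCl region of 211 bp (1.46) then drop out. Distal Gtf3c1 regions, 2 untreated and 10 with KCl as reported, numbered 1 untreated and 4 with KCl under that stricter q, and 1 untreated at equal list lengths. In a 25 kb window, which holds less sequence, distal regions were 0 and 5 for Gtf3c1, 8 and 8 for H3K4me1, 1 and 1 for H3K27ac and 0 and 0 for Rpc155, and active enhancers 1 and 2. More than 5 kb from any gene end, so that gene interiors count, Gtf3c1 had 5 and 7, Rpc155 2 and 3, H3K27ac 7 and 15, and active enhancers 5 and 11. More than 1 kb from any gene end, chosen after seeing the data, gave 35 and 34 for H3K4me1, 15 and 29 for Gtf3c1, 2 and 4 for Rpc155, 23 with KCl for H3K27ac, and 10 and 18 active enhancers. Active enhancers were 6 and 8 at an overlap of 50%, and 6 and 6 under the stricter q. No paired analysis was possible because each antibody and condition has 1 list. Depth, and so the weakest region a list could show, is not known.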

Other observations

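Within the CREB target list, 19 genes had a RefSeq promoter window. The full cAMP response element was in the windows of 4 of them, Dusp1, Pcsk1, Scg2 and Sst, and its core motif in those of 16. Of promoters of protein-coding genes of at least 1 kb, 2.35% and 24.7% held these. Those shares are per promoter, whereas the counts are per gene, and a gene can have more than 1 window. Dusp1, Pcsk1, Scg2 and Sst had differences in Gtf3c1 cover of 34.1, 5.02, 11.6 and 0.0 points. None of them was among the 4 widest of the list, and genes without a window could not be searched. Of the 12 genes with a window among those that carry the signal to CREB, 1 had the full element, Prkar1a. Among the relatives of the 4 genes it was in the window of Gpr6, and among 10 clock genes in none. These are runs of letters and not measured sites.

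Near Per1, the regions at the small nucleolar RNA gene Snord118, 21.5 kb before the gene, had Gtf3c1 fold enrichments of 5.19 without and 10.2 with KCl, beside Rpc155 values of 4.24 and 3.81. The KCl region of Gtf3c1 and the untreated one of Rpc155 also overlapped the gene Tmem107. The Rpc155 summits, at 69073292 and 69073795, lay outside Snord118, so this signal cannot be assigned to it. At the tRNA gene n-TGgcc5 the fold enrichments were 9.85 and 11.5 for Gtf3c1 and 52.6 and 57.02 for Rpc155.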
